A study of Mus musculus with 13 samples.

Results

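The interferon-stimulated genes described here were 35 genes chosen by symbol from a list of well-known targets of interferon. All 35 were listed in the count files of both sets of endothelial cells (ECs), among 24984 genes listed for tumor ECs and 24421 listed for sprout ECs. All 35 had enough counts to be tested in tumor ECs. In sprout ECs 32 were tested, and Ifit3, Ifi44 and Gbp5 were left out for too few counts. The study asked how loss of Apelin, a secreted peptide of growing vessels, changes ECs. Tumor ECs (CD31+/CD105+, with dead and CD45+ cells gated out) were sorted from mammary tumors of E0771 cells, a mouse mammary carcinoma line of C57BL/6 origin. The Apelin-depleted group joined an Apln-/- host with tumor cells carrying a shApln hairpin (n = 3 libraries), and the Apelin wild-type group joined a wild-type C57BL6/J host with cells carrying a shRenilla control hairpin (n = 6), so that host and tumor cells lost Apelin together. Each tumor EC library came from 100 cells. Sprout ECs (CD31+) were sorted from embryoid bodies of Apln gene-trap stem cells on a C57BL/6x129 background, moved into collagen gel on day 8 and given 30 ng/mL VEGFA164. All 4 sprout libraries carried the trap cassette, in the sense orientation in the libraries called Apln STOP (n = 2) and in the antisense orientation, reverted with Cre, in those called Apln GO (n = 2). By the study's legends the STOP cultures received DMSO, the solvent control, and the GO cultures received Apelin, for which the protocol gives 1000 nM, so genotype and added peptide cannot be told apart. The labels do not say that libraries of 1 group came from separate animals or cultures, and p-values therefore measure only the spread between these libraries.

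Interferons are cytokines released on sensing of viral or misplaced nucleic acid. Type I interferons bind the receptor Ifnar1/Ifnar2, the kinases Jak1 and Tyk2 act on transcription factors that include Stat2, and Stat2 joins Irf9 in a complex that binds the interferon-stimulated response element. Interferon-gamma signals through Ifngr1/Ifngr2, Jak1 and Jak2. The genes switched on this way encode proteins that block viral entry, translation and replication, and a second layer of sensors and transcription factors that widens the response. ECs respond to interferons of both types, which are known to restrain vessel growth.

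Several members carry the same short run of letters before their start. RefSeq windows (GRCm38.p6) from 250 bases before to 50 bases after the gene start were matched by symbol for 27 of the 35 members. Dhx58, Mx1, Mx2, Oas2, Parp14, Rtp4, Usp18 and Zbp1 were not matched. Of all runs of 9 letters, counted on both strands in the 250 bases before the start, the run that most members shared was AAACTGAAA. It was found in 11 of the 27 members (40.7%) and in 0.67% of 27025 genes, and the next run was shared by 8 members. The 11 were Bst2, Gbp3, Gbp5, Gbp7, Ifi44, Ifit1, Ifit3, Oas1a, Oasl1, Stat2 and Xaf1. The run was picked from these windows for being the most shared, so the shares are a description. The stretches below are those of the members among the 11 whose values are given in full or beside Gbp2 in the results. They run 5′ to 3′ on the strand of the gene, the capitals mark the run or its reverse complement TTTCAGTTT, and 30 bases are given where an annotated transcript starts close by. The positions are Ifit1 (chr19:34640773-34640842, plus strand), Bst2 (chr8:71537557-71537626, minus strand), Gbp3 (chr3:142559988-142560017, plus strand), Gbp5 (chr3:142496744-142496813, plus strand) and Gbp7 (chr3:142530252-142530321, plus strand).
Ifit1: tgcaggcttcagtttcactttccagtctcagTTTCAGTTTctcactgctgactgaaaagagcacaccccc
Bst2: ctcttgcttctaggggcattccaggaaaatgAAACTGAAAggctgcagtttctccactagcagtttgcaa
Gbp3: tcaggacacagTTTCAGTTTctatttccca
Gbp5: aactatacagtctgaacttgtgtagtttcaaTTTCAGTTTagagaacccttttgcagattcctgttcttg
Gbp7: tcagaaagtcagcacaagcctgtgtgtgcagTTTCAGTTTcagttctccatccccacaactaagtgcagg
Gbp2, Irf1, Irf7, Irf9, Ifitm3, Eif2ak2 and Isg15 had a window without this run. The 3 Gbp genes shown carry it on the same strand and lie with Gbp2 on chromosome 3. A match is a description of the letters and not a measured binding site.

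Total counts lay between 4661044 and 14455093 in the tumor libraries and between 12327030 and 16804071 in the sprout libraries, at which 3 counts correspond to between 0.211 and 0.596 CPM and between 0.177 and 0.244 CPM. CPM here are counts scaled to a TMM-normalized library size, worked out for each set alone, and these floors cover counting error only. Apln, the targeted gene, was at 12.1, 8.51 and 2.44 CPM in Apelin-depleted replicates 1, 2 and 3 and ranged from 416 to 1033 CPM in the wild-type libraries (log2 fold change −6.70, SE 0.59, adjusted p = 6.13e-05, edgeR). In sprout ECs Apln was at 66.1 and 80.2 CPM in the libraries labelled STOP and at 58.2 and 65.9 CPM in those labelled GO, so it gave no check of the labels. All 12 endothelial markers, by contrast, were lower in the libraries labelled STOP. Directions in sprout ECs are given for the libraries as labelled. All 12 endothelial markers had counts in every library of both sets.

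Most of the 35 genes were at higher CPM in tumor ECs than in sprout ECs. For 33 of the 35 members (94.3%), every tumor library lay above every sprout library, against 7.03% of 23690 genes listed for both sets. The exceptions were Trim25, a ubiquitin ligase that activates the RNA sensor Rig-I, and Eif2ak2, which encodes the double-stranded RNA-activated kinase PKR, and the libraries of both sets overlapped for these. Trim25 had the higher median in sprout ECs, at 149.9 CPM against 109 CPM. The sets differ in tissue, library type and the program that counted reads, and CPM were scaled within each set. A number of cells is given for tumor libraries only. The 10 pluripotency markers summed to 0.915 to 23.8 CPM in tumor libraries and 2200 to 5863 CPM in sprout libraries. The 12 endothelial markers summed to 8618 to 14459 CPM and 662 to 2597 CPM. The parts of these differences cannot be told apart, and no test was run between the sets.

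Among the members with a wide gap was Irf7, the transcription factor that amplifies type I interferon production. Irf7 was between 359 and 1677 CPM in the 9 tumor libraries, with a median of 1024, and at 0.745, 1.14, 2.71 and 2.10 CPM in STOP 1, STOP 2, GO 1 and GO 2. The ratio of the medians was 633. For Ifi44, Ifit3 and Gbp7 this ratio was 565, 415 and 256. These sprout values rest on few counts, 2 to 26 for Ifi44, 3 to 18 for Ifit3, 14 to 32 for Gbp7 and 11 to 46 for Irf7, so the order of the ratios is not resolved. Stat2, the transcription factor shared by all type I responses, differed far less, with between 64.0 and 232 CPM in tumor ECs and between 46.3 and 62.3 CPM in sprout ECs. Ddx58, which encodes the RNA sensor Rig-I, had a ratio of 3.87 and Irf1 of 4.62.

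**Figure D1:**
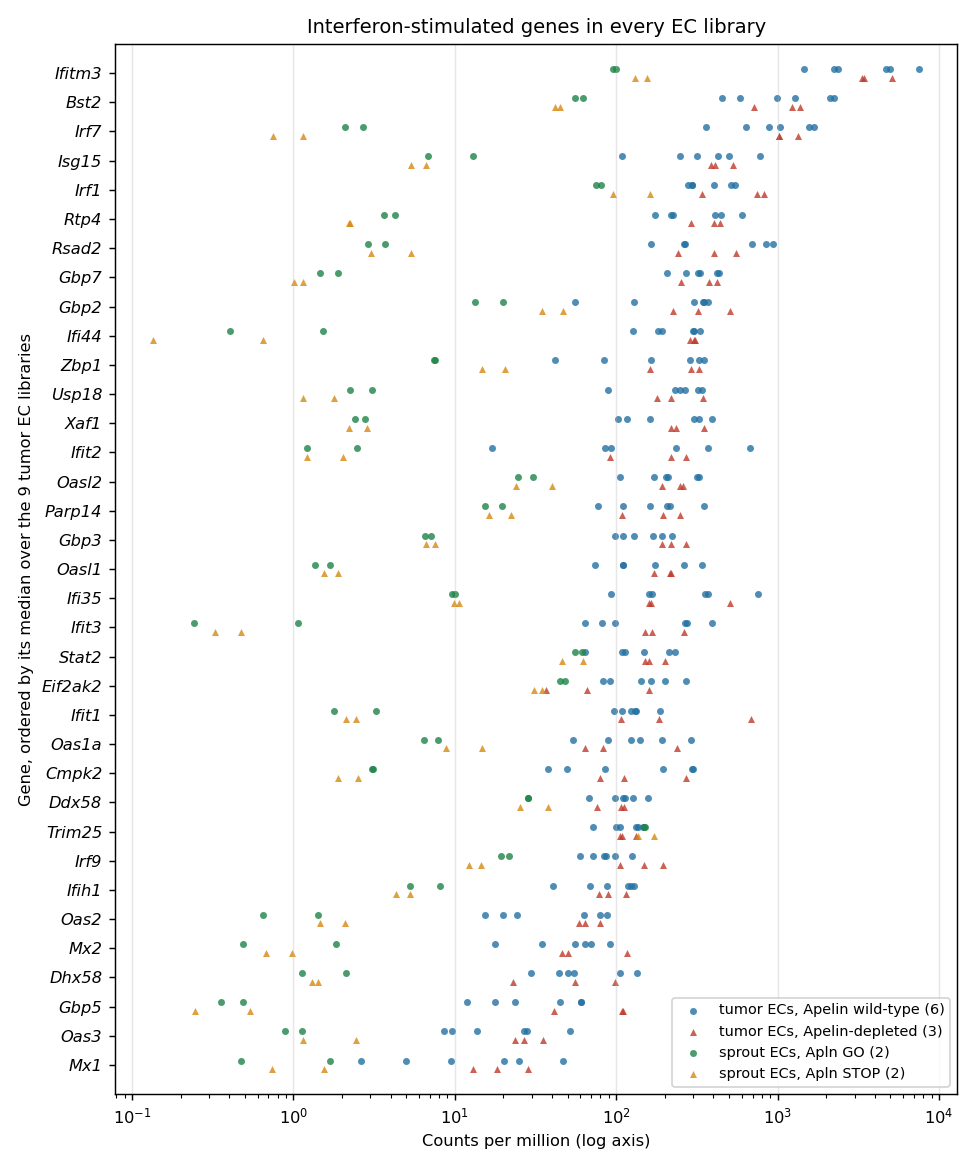
CPM (log axis) of the 35 interferon-stimulated genes in each of the 9 tumor EC libraries (blue circles, wild-type; red triangles, Apelin-depleted) and the 4 sprout EC libraries (green circles, GO; orange triangles, STOP), ordered by the tumor median. Tumor and sprout libraries are apart for 33 genes, and overlap for Trim25 and Eif2ak2.

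Per kilobase of transcript, the highest member in tumor ECs was Ifitm3, which encodes a membrane protein that blocks viral fusion, at a mean of 6535 CPM per kb (2431 to 12596). Bst2, which encodes tetherin, a protein that holds budding virions at the cell surface, followed at 1703 CPM per kb (633 to 3111), and Irf7 at 610 (207 to 964). The ranges of Ifitm3 and Bst2 overlapped, as did those of Bst2 and Irf7. Isg15, the ubiquitin-like modifier, was next at 582 CPM per kb. In sprout ECs the highest members in TPM, which is scaled for length and library size by RSEM, were Ifitm3 with a mean of 320, Bst2 with 103 and Irf1 with 69.6. Ifitm3 and Bst2 therefore led in both sets, while Irf7 was low in sprout ECs at 0.62 to 2.62 TPM.

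In tumor ECs, loss of Apelin moved no interferon-stimulated gene past the thresholds (adjusted p under 0.05 and an absolute log2 fold change over 1). In edgeR's quasi-likelihood test 0 of the 35 members were decreased and 0 increased, and of all 13073 genes tested 0.00765% were decreased, which was Apln alone, and 0% were increased. DESeq2 also called 0 members, while over all genes it called 50 decreased and 8 increased. At an unadjusted p under 0.05, 0 members were lower and 4 were higher, with 2.94% and 1.87% of all genes. Of the members 22 were higher and 13 lower in the Apelin-depleted libraries, where 48.1% of all genes were higher. The median of their log2 fold changes was 0.13, against −0.03 over all genes. The libraries of the groups were apart for 0 members, with 1.27% of all genes apart and lower and 1.06% apart and higher.

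The member with the lowest p was Ifit1, whose protein binds viral RNA that lacks the host cap methylation. Ifit1 was at 685, 186 and 108 CPM in Apelin-depleted replicates 1, 2 and 3 and between 96.6 and 187 CPM in wild-type libraries, with a median of 127. The first replicate stood alone and the other 2 lay within the wild-type range (log2 fold change 1.33, SE 0.43, adjusted p = 0.909, edgeR). Without that library the log2 fold change was 0.18 (adjusted p = 0.997). The same library had the highest macrophage marker sum, 967 CPM over 10 genes with none at 0, against at most 614 CPM in the others. It also had the highest tumor epithelial marker sum, 222 CPM over 10 genes with 4 at 0, against 12.2 to 67.7 CPM in the others. The part of these transcripts in the Ifit1 value was not tested. Its neighbours on chromosome 19 did not stand out there, with Ifit2 at 91.8, 219 and 271 CPM and Ifit3 at 152, 166 and 262 CPM in replicates 1, 2 and 3.

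Among the transcription factors, all 4 members had positive log2 fold changes, from 0.14 to 0.77, and none passed the test. Irf9, the DNA-binding partner of Stat2, was at 106, 148 and 194 CPM with Apelin depleted and ranged from 59.3 to 126 CPM in wild-type libraries (median 85.5). Of the 3 Apelin-depleted libraries 2 lay above every wild-type library (log2 fold change 0.77, SE 0.31, adjusted p = 0.981, edgeR). Irf1, a transcription factor induced by interferon-gamma, was at 747, 822 and 340 CPM against 278 to 549 CPM (median 349), again with 2 of 3 libraries above the wild-type range (log2 fold change 0.71, SE 0.33). Irf7 and Stat2 overlapped throughout, with log2 fold changes of 0.14 and 0.21.

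The guanylate-binding proteins, GTPases that attack the membranes of intracellular pathogens and that respond most to interferon-gamma, were also higher in 4 of 4 members without passing the test. Gbp5, whose protein promotes inflammasome assembly, was at 108, 110 and 41.1 CPM against 11.9 to 60.9 CPM (median 34.4), with 2 of 3 libraries above the wild-type range (log2 fold change 1.24, SE 0.51, adjusted p = 0.981). Gbp3 was at 220, 273 and 193 CPM against 98.3 to 222 CPM (log2 fold change 0.57, SE 0.31), with 1 library above the range. Gbp2 and Gbp7 had log2 fold changes of 0.44 (SE 0.47) and 0.07 (SE 0.29). The marker sum of T and NK cells, which secrete interferon-gamma, was 52.7, 38.0 and 139 CPM over 9 genes in the Apelin-depleted libraries. In the wild-type libraries it was 0.141 to 9.97 CPM. Between 3 and 8 of the 9 genes were at 0 in each library of both groups. The sums rested on few genes. In Apelin-depleted replicate 2 Cd2 alone was at 37.5 CPM, and 6 of the 9 genes were at 0. In replicate 1 Cd2 and Gzmb were at 21.8 and 26.2 CPM. Ifng itself had 0 counts in all 3 Apelin-depleted libraries. Cd2 was the only gene of the T and NK cell list with enough counts to be tested. Its 3 Apelin-depleted libraries lay above every wild-type library. Other marker lists moved too, with none of their genes called. All 3 neutrophil markers tested were lower, with sums over 10 genes of 0.244 to 3.17 CPM against 4.52 to 22.8 CPM. All 9 fibroblast and mural markers tested were lower (median −2.52), 2 of them with groups apart, and 11 of 12 endothelial markers were higher (median 0.36). Of 3 tumor epithelial markers tested 2 were higher, and Cldn4 had its groups apart, at 172, 7.81 and 12.4 CPM against at most 4.02 CPM. Without the 3 libraries with most macrophage or fibroblast transcripts (Apelin-depleted replicate 1 and wild-type replicates 2 and 4, chosen after seeing the data) the log2 fold changes were 0.73 for Gbp5, 0.43 for Gbp3 and 0.51 for Irf1. That of Ifit1 was 0.17, while that of Irf9 was larger than with all libraries, at 1.00 against 0.77. The part of the T and NK cell, neutrophil and epithelial transcripts in these values was not tested.

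The remaining families lay closer to 0 or had wide errors. The effectors of the OAS family, most of which make the messenger that activates RNase L, had log2 fold changes from −0.21 (Oas1a) to 0.48 (Oas2). The Mx GTPases, which trap viral nucleocapsids, were at 0.14 (Mx1, SE 0.75) and 0.35 (Mx2, SE 0.47). Isg15, Usp18, which removes Isg15 from proteins, and Trim25 were between −0.00 and 0.15. The neighbours Rsad2, encoding viperin, and Cmpk2, a nucleotide kinase, were at −0.41 (SE 0.51) and −0.05 (SE 0.66). The 5 sensors of nucleic acid formed the family with most members on the lower side, 4 of 5, and the largest of these values was that of Eif2ak2, at 66.4, 37.0 and 160 CPM against 82.4 to 270 CPM (log2 fold change −0.85, SE 0.47, adjusted p = 1.00). Of its Apelin-depleted libraries 2 lay below the wild-type range. Ifitm3 and Bst2 stayed near 0, at 0.04 (SE 0.43) and −0.20 (SE 0.45). Of the last 5 members, Ifi35, Ifi44, Rtp4, Xaf1 and Parp14, the fitted values ran from −0.19 to 0.33.

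**Figure D2:**
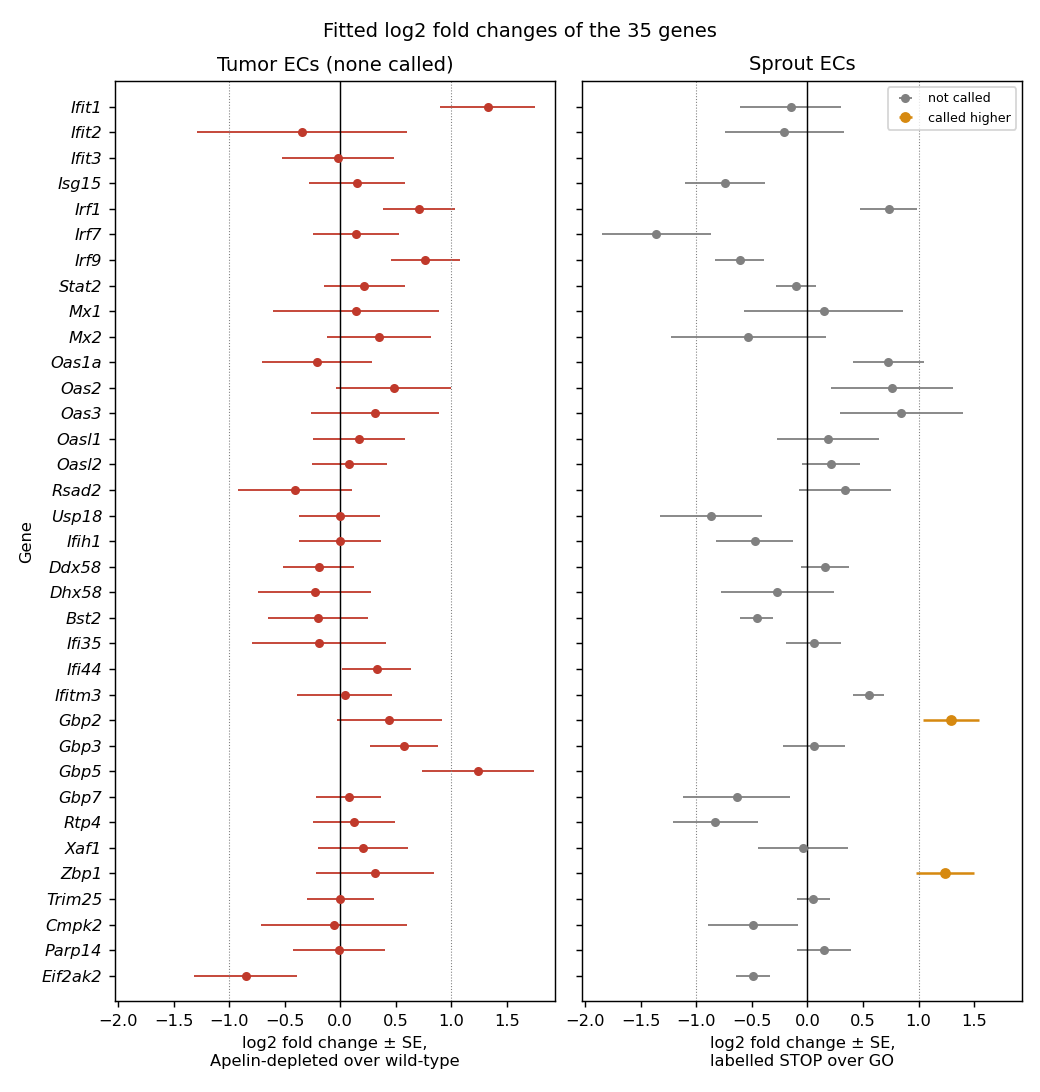
Fitted log2 fold change with its standard error for each of the 35 genes in tumor ECs (left, Apelin-depleted over wild-type, n = 3 and 6) and sprout ECs (right, libraries labelled STOP over GO, n = 2 and 2), with dotted lines at the fold threshold of 1. No tumor value was called, and Gbp2 and Zbp1 were called higher in sprout ECs. The right panel has no points for Ifit3, Ifi44 and Gbp5, which were not tested there.

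The members varied widely between the wild-type tumor libraries. In wild-type libraries the members' SD of log2 CPM had a median of 0.83, against 0.72 over all genes tested, while in Apelin-depleted libraries it was 0.44 against 0.65. Ifit2 differed 39.8 times between the lowest and highest wild-type library, and Mx1 17.7 times. The members moved largely together from library to library. Wild-type replicates 2, 3 and 4 had 2, 5 and 2 of the 35 members above the member's median over the 9 libraries, whereas replicates 1, 5 and 6 had 28, 24 and 29. Apelin-depleted replicates 1, 2 and 3 had 10, 15 and 25 members above. For all genes tested the corresponding share was between 42.7% and 46.1% in each library.

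Replicates 2 and 3 held most of the lowest wild-type values, 16 and 11 of 35. Replicate 5 held 12 of the highest and replicate 6 held 11. Rsad2 gives an example, at 938, 164, 266, 264, 852 and 691 CPM in wild-type replicates 1 to 6, where the 3 high and 3 low libraries are far apart and the Apelin-depleted values of 552, 242 and 402 CPM fall among them. Isg15 was lowest in replicate 3, at 109 CPM, and highest in replicate 5, at 779 CPM. Replicate 2 also held the highest sum of fibroblast and mural markers, 5360 CPM over 10 genes with none at 0 against 86.1 to 410 CPM in the other wild-type libraries, and replicate 4 the highest wild-type macrophage sum, 614 CPM. Replicate 3 had neither at such a level, with sums of 242 and 168 CPM. The parts of these transcripts in the low member values were not tested. Endothelial marker sums ranged from 8618 to 12829 CPM in wild-type libraries, and replicates 3 and 5, at opposite ends for the members, had the 2 lowest sums.

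**Figure D3:**
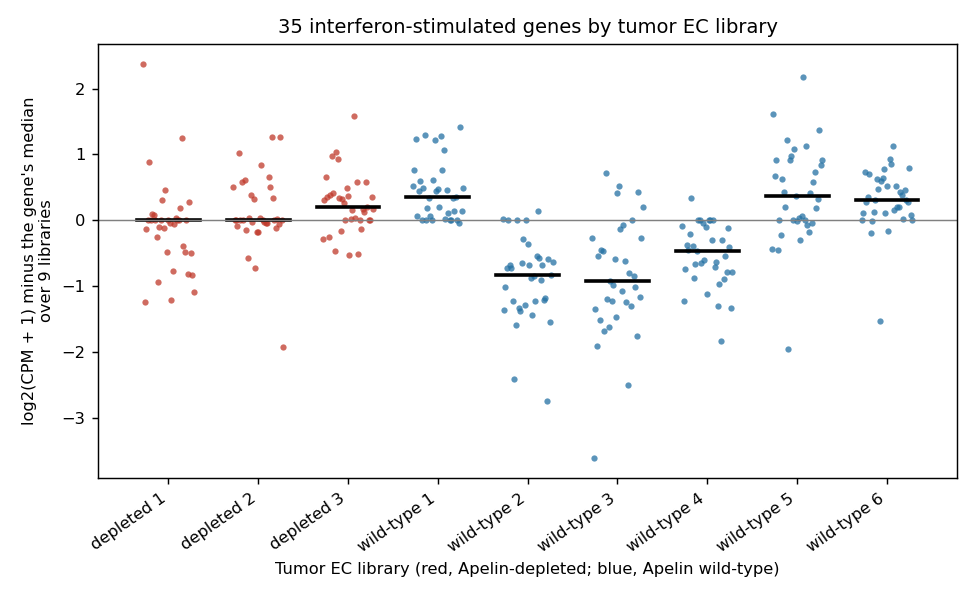
Difference of each member's log2(CPM + 1) from its median over the 9 tumor EC libraries, by library (35 points each; red, Apelin-depleted; blue, wild-type), with a black bar at the library's median. Wild-type replicates 2, 3 and 4 sit low, with medians of −0.83, −0.92 and −0.47, and wild-type replicates 1, 5 and 6 sit high, with 0.36, 0.37 and 0.31.

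In sprout ECs, 2 members rose in the libraries labelled STOP and 0 fell. The 2 were Gbp2, an interferon-inducible GTPase, and Zbp1, a sensor of Z-form nucleic acid that can start necroptosis. The share of all 14557 genes tested was 0.852% increased and 3.03% decreased. At an unadjusted p under 0.05, 4 members were lower and 4 higher, with 14.3% and 12.4% of all genes. The members were spread evenly around 0, 16 on each side (50.5% of all genes were higher), and the median of their log2 fold changes was 0.00 against 0.01 over all genes. The libraries of the groups were apart for 9 members on the lower side and 7 on the higher, with 29.6% and 31% of all genes.

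Gbp2 was at 47.1 and 34.7 CPM in STOP 1 and STOP 2 and at 19.9 and 13.4 CPM in GO 1 and GO 2. The groups did not overlap, with a log2 fold change of 1.29 (SE 0.25, adjusted p = 0.0297, edgeR). Zbp1 was at 20.4 and 14.8 CPM against 7.49 and 7.43 CPM, again apart, with a log2 fold change of 1.24 (SE 0.26, adjusted p = 0.0343). Both calls rest on small margins. With RSEM expected counts in place of the HTSeq counts both had an adjusted p of 0.0502, and without STOP 1 these were 0.170 and 0.233. Without GO 1 or GO 2 Zbp1 had an adjusted p of 0.158 and 0.0639, and Gbp2 kept its call.

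None of the other 3 Gbp genes among the 35 was called. Gbp3, its neighbour on chromosome 3, was at 7.52 and 6.68 CPM in STOP and 6.55 and 7.10 CPM in GO (log2 fold change 0.06, SE 0.28), and Gbp7 was at 1.02 and 1.14 CPM against 1.89 and 1.45 CPM (−0.64, SE 0.48). Gbp5 had between 3 and 8 counts in each library. Among the other sensors, Eif2ak2 was lower at 34.7 and 31.1 CPM in STOP against 47.9 and 44.9 CPM in GO, apart but short of the threshold (log2 fold change −0.49, SE 0.15, adjusted p = 0.0958). Ddx58, Ifih1 and Dhx58, the RNA helicase sensors, were at 0.16, −0.48 and −0.27.

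The membrane proteins split. Ifitm3 was at 131 and 156 CPM in STOP and at 95.9 and 99.8 CPM in GO, a log2 fold change of 0.55 (SE 0.14, adjusted p = 0.0587). Bst2 went the other way, at 41.5 and 44.6 CPM against 62.7 and 55.4 CPM (−0.46, SE 0.15, adjusted p = 0.107). In both the groups were apart, and neither passed edgeR's test. With DESeq2 the adjusted p of Ifitm3 was 0.0186, at a log2 fold change of 0.54 that is under the threshold of 1 for a call.

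The transcription factors also split. Irf1 was at 162 and 95.1 CPM in STOP and at 80.1 and 74.7 CPM in GO (log2 fold change 0.73, SE 0.25, adjusted p = 0.141), and the value was 1.05 without STOP 2 (adjusted p = 0.0117) and 0.32 without STOP 1 (adjusted p = 0.498). Irf7 had only 11 and 14 counts in STOP and 46 and 26 counts in GO (−1.36, SE 0.49, adjusted p = 0.131). Irf9 was at 14.6 and 12.3 CPM against 21.7 and 19.5 CPM (−0.61, SE 0.22, adjusted p = 0.129). Stat2 lay at −0.10 (SE 0.18), with its libraries overlapping.

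Many antiviral effectors were low in sprout ECs. All 5 members of the OAS family had positive values, from 0.18 to 0.85, with 3 of them apart and none called, where 50.5% of all genes were higher and 31% apart and higher. The best measured was Oasl2 at 39.9 and 24.0 CPM against 30.4 and 24.7 CPM. Ifit1, Ifit2, Mx1, Mx2, Oasl1, Oas2 and Oas3 were at or below 3.24 CPM in every sprout library. Isg15 was at 5.35 and 6.60 CPM in STOP and 13.04 and 6.86 CPM in GO (−0.74, SE 0.36), and its partner Usp18 was also on the lower side (−0.87, SE 0.46). Xaf1 was at 2.20 to 2.84 CPM by HTSeq, which leaves out reads that align to several places, but at 8.09 to 16.9 TPM by RSEM, which shares such reads out. Between 42.6% and 49.6% of all alignments tallied in a sprout library were of this kind, a tally that can hold 1 read several times. Members with close copies (the Ifit, Oas1, Gbp and Ifitm genes) are therefore less certain.

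**Figure D4:**
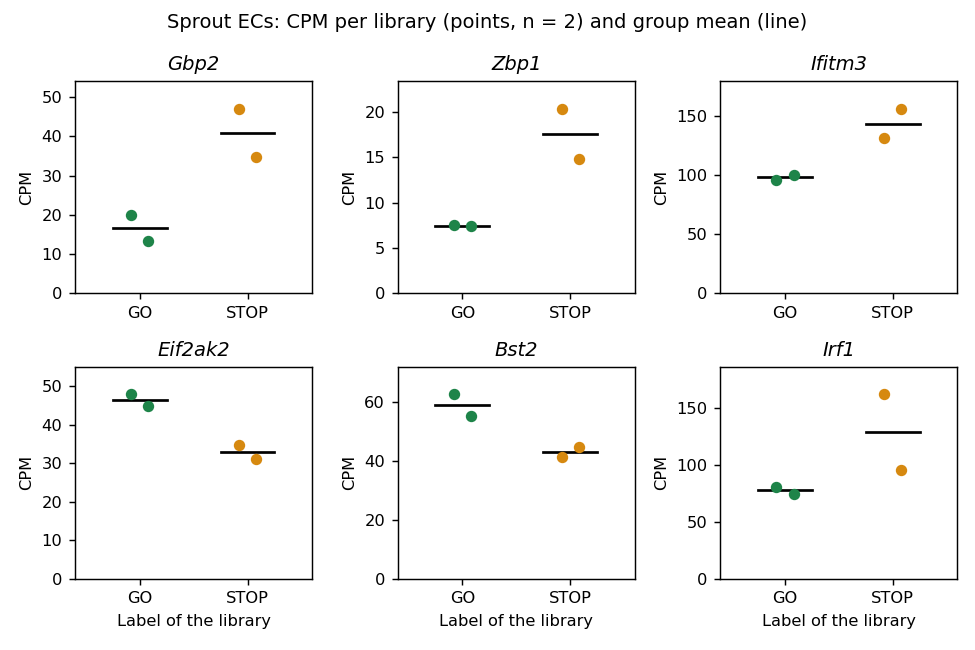
CPM per sprout EC library for 6 members (points, 2 per group; line, group mean; axes start at 0). Gbp2 and Zbp1 passed the test and were higher in STOP, while Ifitm3, Eif2ak2, Bst2 and Irf1 had groups apart without passing it.

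The sorted cells themselves differed between the labels. The 12 endothelial markers summed to 662 and 894 CPM in the libraries labelled STOP and 2597 and 2489 CPM in those labelled GO, with 12 of 12 lower and 11 of them called, and none at 0. The 10 pluripotency markers summed to 5863 and 5682 CPM against 2200 and 3683 CPM, with 10 of 10 higher, 2 of them called and none at 0. The 10 tumor epithelial markers summed to 1350 and 983 CPM against 795 and 759 CPM, with 6 apart and higher (31% of all genes), 4 lower and none called. Fewer ECs in the sort and less of the endothelial transcripts per EC cannot be told apart in bulk libraries. The part of these shifts in the values of Gbp2, Zbp1 and the other members was not tested.

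The response of the members did not pass a test of difference between the sets. In limma's voom fit over all 13 libraries, 0 of 32 members had a log2 fold change that differed between tumor and sprout ECs, with 1.36% of 11737 genes called. The member nearest to it was Irf9, the only one at an unadjusted p under 0.05 (13.6% of all genes), with a difference of 1.39 (SE 0.37, adjusted p = 0.0755). The adjusted p of Irf9 ran from 0.0637 to 0.693 over the alternatives. For Gbp2 and Zbp1, called only in sprout ECs, the differences, tumor minus sprout, were −0.65 (SE 0.64) and −0.57 (SE 0.74), so their responses in the 2 sets were not shown to differ.

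Of 20 interferon ligand genes, none had enough counts to be tested in either set. In tumor ECs 10 had no count in any library, and the highest value was 15 counts of Ifna14 in Apelin-depleted replicate 1. Ifnb1, the interferon most cells make first, had 2 counts in wild-type replicate 4, 1 in replicate 6 and 0 in the others. Ifng had 2 counts in wild-type replicate 3 only. In sprout ECs 17 had no count in any library.

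Of 16 interferon receptors and JAK-STAT genes, 15 were tested in tumor ECs and 0 were called. Ifnlr1, a receptor subunit for interferon-lambda, was not tested there, with at most 3 counts in a library and 0 in 5 of the 9. Ifnar1 and Ifnar2 were at 109 to 251 CPM and 123 to 244 CPM over the 9 libraries, with log2 fold changes of 0.31 (SE 0.29) and 0.28 (SE 0.28). Socs3, which restrains signaling by several cytokines, was at 499, 873 and 183 CPM against 164 to 390 CPM (0.95, SE 0.40, adjusted p = 0.986), and the value was 0.34 without Apelin-depleted replicate 2.

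In sprout ECs all 16 were tested, 1 fell and 0 rose, against 3.03% and 0.852% of all genes. At an unadjusted p under 0.05, 7 were lower, against 14.3% of all genes, and the median of the 16 was −0.52. Jak2, the kinase of the interferon-gamma receptor and of many cytokine receptors, was at 20.1 and 28.8 CPM in STOP and 60.6 and 46.9 CPM in GO (log2 fold change −1.14, SE 0.22, adjusted p = 0.0299). Without STOP 1 or GO 1 Jak2 had an adjusted p of 0.169 and 0.146. The receptor genes Ifnar1, Ifnar2, Ifngr2 and Il10rb had values of −0.52, −0.93, −1.10 and −1.55, and Stat3 of −1.19, with groups apart and none called by edgeR. DESeq2 called Ifngr2, Il10rb and Stat3 decreased, with adjusted p of 0.0163, 0.011 and 0.00121, and 615 of all genes. Of the 16, 9 were apart and lower and 3 apart and higher, against 29.6% and 31% of all genes. The 3 were Socs1, Ptpn2 and Pias1, at 0.51, 0.28 and 0.02, and Ifnlr1 was at 0.31 with its libraries overlapping. The lower values have the same sign as those of the endothelial markers, and the part of that shift was not tested.

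**Figure D5:**
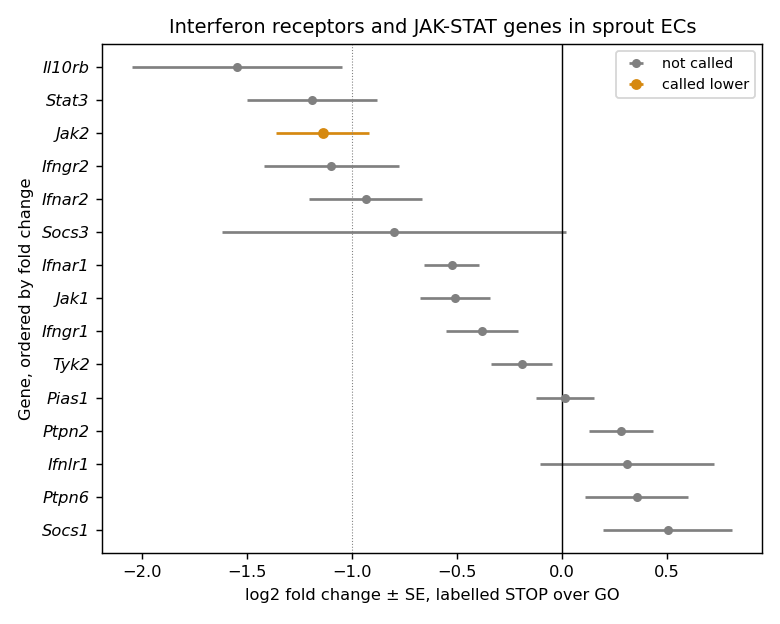
Log2 fold change with its standard error of 15 of the interferon receptor and JAK-STAT genes in sprout ECs, libraries labelled STOP over GO (n = 2 and 2), with a dotted line at −1. Jak2 was called lower, and 10 of the 15 values are below 0.

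Genes that sense nucleic acid or induce interferon gave 0 calls in both sets. In tumor ECs 13 were tested, and 0.00765% of all genes were decreased and 0% increased. In sprout ECs 15 were tested, with a median of −0.34 against 0.01 over all genes, of which 3.03% were decreased and 0.852% increased. A list of 46 further interferon-stimulated genes held both higher and lower genes, as the members did. In tumor ECs 45 were tested and 0 called. Ifitm1, a close relative of Ifitm3, had 0, 0 and 2 counts in Apelin-depleted replicates 1, 2 and 3, while wild-type libraries had 2 to 442, the highest in replicate 2. Its adjusted p was 0.901 with edgeR and 0.00652 with DESeq2. Trim21, an intracellular antibody receptor, was at 8.33, 5.98 and 14.4 CPM against 0.195 to 4.24 CPM, with groups apart (log2 fold change 2.62, SE 1.07, adjusted p = 0.981). Gbp6 and Gbp4 had log2 fold changes of 1.04 (SE 0.49) and 0.59 (SE 0.33), and of 0.49 and 0.34 without Apelin-depleted replicate 2.

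In sprout ECs 41 were tested, 2 rose and 3 fell, against 0.852% and 3.03% of all genes. At any size 25 were higher and 16 lower, where 50.5% of all genes were higher, and their median log2 fold change was 0.18. Groups were apart for 16 on the higher side and 8 on the lower, against 31% and 29.6% of all genes. Herc6, the main mouse ligase for Isg15, was at 41.0 and 36.3 CPM in STOP and 18.0 and 16.1 CPM in GO (log2 fold change 1.18, SE 0.18, adjusted p = 0.0137). Ddx60, a helicase linked to RNA sensing, was at 30.3 and 23.9 CPM against 10.8 and 12.6 CPM (1.21, SE 0.22, adjusted p = 0.0251). Uba7, the E1 enzyme of the same Isg15 pathway, fell where Herc6 rose, at 2.91 and 3.75 CPM against 9.03 and 7.99 CPM (−1.36, SE 0.32, adjusted p = 0.0477). Gbp9 fell from 8.97 and 11.4 CPM in GO to 2.64 and 3.26 CPM in STOP (−1.78, SE 0.32, adjusted p = 0.0224), opposite in sign to Gbp2. Helz2, a transcriptional coactivator, fell at 18.1 and 22.2 CPM against 47.7 and 35.3 CPM (−1.04, SE 0.21, adjusted p = 0.0308). Without STOP 1 none of these 5 had an adjusted p under 0.05, from 0.0932 to 0.276. Without GO 1 the p of Ddx60, Gbp9, Helz2 and Uba7 ran from 0.0675 to 0.225, while without GO 2 those of Gbp9 and Uba7 were 0.0511 and 0.0648, and without STOP 2 that of Uba7 was 0.0829. The p of Uba7 was 0.0501 with DESeq2 size factors and 0.0657 with RSEM expected counts.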

How the data were processed

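The authors deposited whole-number counts per gene for each library, unnormalized, from featureCounts for tumor ECs and from HTSeq for sprout ECs, and for sprout ECs RSEM expected counts and TPM. The labels' processing notes list Bowtie2 2.3.4.1 and Subread 1.6.2 for tumor ECs, whereas the study's methods name STAR, and give STAR 2.5.0a, HTSeq 0.6.1p1 and RSEM 1.2.25 for sprout ECs. Whether strand was used in counting is not given in the sources used here, and 11 of the 35 members overlap another RefSeq gene, so reads of such pairs could be mixed. Lines for unassigned reads were left out.

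Each set was fitted alone in edgeR 4.0.16 (R 4.3.3; TMM, filterByExpr with a minimum count of 10, robust quasi-likelihood fit), with Benjamini-Hochberg adjustment over all genes tested. The study used DESeq2, kept as an alternative (1.42.0). The difference between sets was tested with limma 3.58.1. Deposited TPM gave sprout levels, and RSEM effective lengths gave CPM per kb. Replicate libraries differed by more than sampling noise and were each counted once.

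Other alternatives were DESeq2 size factors, no filter, a mean of at least 10 counts, the replicate number as a block, rounded RSEM counts, voom with quality weights, and each library left out. 2 were added after seeing the data, the block with crossed numbers and leaving out 3 tumor libraries rich in macrophage or fibroblast transcripts. Named genes were all called members and, in each set, the 5 with the lowest p and the 3 with the highest level, with called pathway genes and the 5 of lowest p. Other genes are examples chosen after their values were seen. The members, lists and rules were chosen with earlier results of these data known. Simulated counts were used to check the scripts. The values of 1 gene of the receptor and JAK-STAT list are not reported here.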

Additional observations from a re-analysis of the deposited data

Results flagged for a closer look

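Only the wild-type tumor ECs had enough libraries (n = 6) to be checked for a single value far from the rest. Of 45 quantities checked there, 5 stood out, and chance alone marks about 1 in 20. None was among the 35 members. Ifitm1 was at 43.2 CPM in replicate 2, against 11.99 CPM in the next library. Trim21 was at 4.24 CPM in replicate 6, against 1.59 CPM. The macrophage marker sum was 614 CPM in replicate 4, against 168 CPM, and the T and NK cell marker sum was 9.97 CPM in replicate 2, against 3.29 CPM. The fibroblast and mural marker sum was 5360 CPM in replicate 2, against 410 CPM. The causes of these values were not tested.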

How the results depend on the processing

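In tumor ECs the count of members called was 0 in both directions under each of the alternatives run. In sprout ECs the 2 increased members became 0 with RSEM expected counts and between 0 and 3 with each library left out. With the replicate number as a block, 0 members were increased (Gbp2 adjusted p = 0.0679, Zbp1 adjusted p = 0.129). Same-numbered sprout libraries deviated in opposite directions (correlation across genes −0.434). With the numbers crossed in the block, Gbp2 and Zbp1 kept their calls (edgeR, adjusted p = 0.00107 and 0.000668). In that fit 1 member, Irf7, was decreased, 7 pathway genes were decreased, and Herc6, Ddx60 and Phf11d were increased. In tumor ECs the mean correlation over 3 pairs was −0.0512, so the numbers were not taken as pairs. Pathway genes decreased in sprout ECs numbered 4, against 7 with DESeq2, 0 with the replicate block and 0 to 6 with each library left out. Those increased numbered 2, against 0 with the block and 0 to 3 with libraries left out. In tumor ECs DESeq2 called 1 pathway gene decreased, Ifitm1. The median of members in sprout ECs ran from −0.23 to 0.089 with libraries left out, the low end without STOP 1. In tumor ECs it ran from −0.01 to 0.28, and was 0.61 with the block. Signs turned for values near 0. Bst2 in tumor ECs was 0.45 with the replicate block, and with each library left out ran from −0.38 to 0.042, above 0 without depleted replicate 1 and without wild-type replicate 6 (0.029). Ifitm3 ran from −0.19 (without depleted replicate 3) to 0.34, with −0.071, −0.12 and −0.072 without wild-type replicates 2, 3 and 4, and was −0.13 without the 3 libraries rich in other cells' transcripts and 0.62 with the block. Irf7 ran from −0.028 (without wild-type replicate 3) to 0.34, and was 0.66 with the block. The causes were not tested. Where a library left out leaves an arm with 1 sample, that sample is assumed to vary like the other group. Few counts limit the precision for many effectors in sprout ECs.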
